A study of Mus musculus with 6 samples.

Results

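Genes that mark eosinophils, basophils and mast cells were followed in cultured mouse neutrophils that lack miR-223 and in wild-type neutrophils. The members were chosen by identity, as 8 named probe sets for 7 genes, out of 45101 probe sets on each Affymetrix expression array. Of these, 4 probe sets are for eosinophil genes (Prg2, Epx, Siglecf and Ccr3) and 4 are for mast cell and basophil genes (Cpa3, Fcer1a and Hdc, the last with 2 probe sets). The groups were neutrophils grown from miR-223 null bone marrow (3 arrays) and neutrophils grown from wild-type bone marrow (3 arrays), both mouse. In both groups, bone marrow progenitors spent 6 days in a SILAC medium with G-CSF and stem cell factor (SCF) and a further 42 hours after SCF was removed, and live neutrophils were then taken with magnetic beads. The labels do not give strain, age, sex, the structure of the null allele or whether mice were pooled, nor whether the replicates were separate mice or cultures, so p-values measure the spread between these arrays, which may be technical.

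Eosinophils, basophils and mast cells are cells of the myeloid lineage that carry basic granule proteins, histamine or IgE receptors and act in allergy and in defence against worms. They share early progenitors with neutrophils, and GATA transcription factors are known to direct their development. SCF, present in the first stage of these cultures, is the ligand of Kit, the receptor on which mast cells depend. miR-223 is a microRNA of the myeloid lineage. MicroRNAs repress mRNAs that pair with their seed, bases 2 to 8 counted from the 5′ end.

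The 2 mature strands of miR-223 are shown because they are what the null cells lack. The sequences are from RefSeq (build GRCm38.p6), chromosome X, plus strand, at chrX:96242884-96242905 for the 3p strand and chrX:96242842-96242864 for the 5p strand. Capitals mark the seed.
mmu-miR-223-3p: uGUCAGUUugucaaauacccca
mmu-miR-223-5p: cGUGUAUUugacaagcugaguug
Whether the members' transcripts hold sites for these seeds was not analysed here.

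Of the 7 genes, 5 read well above background in these neutrophils, Epx was close to it and Ccr3 was next to it. Values are the deposited log2 intensities, on which each array had a median between 4.71 and 4.72. Background was set on each array at the 95th percentile of the 3 control probe sets for bacterial tryptophan genes, which have no target in mouse RNA, and lay between 2.91 and 3.07. By this measure 7 of 8 probe sets were above background on all 6 arrays. The level is a low bar: it lay below the 25th percentile of every array (3.40 to 3.43). Most probe sets of any kind on an array exceed it too, so this count alone does not show that a gene is expressed. Probe sets differ in how brightly they read, so 1 gene's level cannot be set against another's on this scale.

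Ccr3, the eotaxin receptor of eosinophils (chromosome 9, 124017825 to 124031692), was not clearly above background. Its probe set, 1422957_AT, read 3.38, 3.31 and 3.38 in null arrays, against 3.06, 3.10 and 3.23 in wild-type arrays. It exceeded the tryptophan controls on 5 of 6 arrays, by at most 0.43, and was 0.01 below them on wild-type 1. It was also below the 25th percentile of its array on all 6 arrays. The null values lay above the wild-type values by 0.23 log2 units on average, a difference at a level where transcript and non-specific signal cannot be told apart. This probe set did not pass the filter on dim signal (mean over 6 arrays of at least 4.08), and with no filter its limma adjusted p was 0.505 without and 0.252 with the replicate number as a block.

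Epx, eosinophil peroxidase (chromosome 11, 87863997 to 87875536), was close to background. Its probe set, 1449136_AT, read 3.36, 3.74 and 4.30 in null arrays, against 4.08, 4.49 and 4.58 in wild-type arrays. It was above the tryptophan controls on all 6 arrays, by 0.41 to 1.66. It was below the 40th percentile of the array on 3 of 6, namely null 1, null 2 and wild-type 1. On null 1 it was also below the 25th percentile (3.36 against 3.43). At such a level transcript and non-specific signal cannot be told apart, which limits how its lower null values can be read. Its mean of 4.09 over 6 arrays was only just enough to be kept by the filter.

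**Figure D1:**
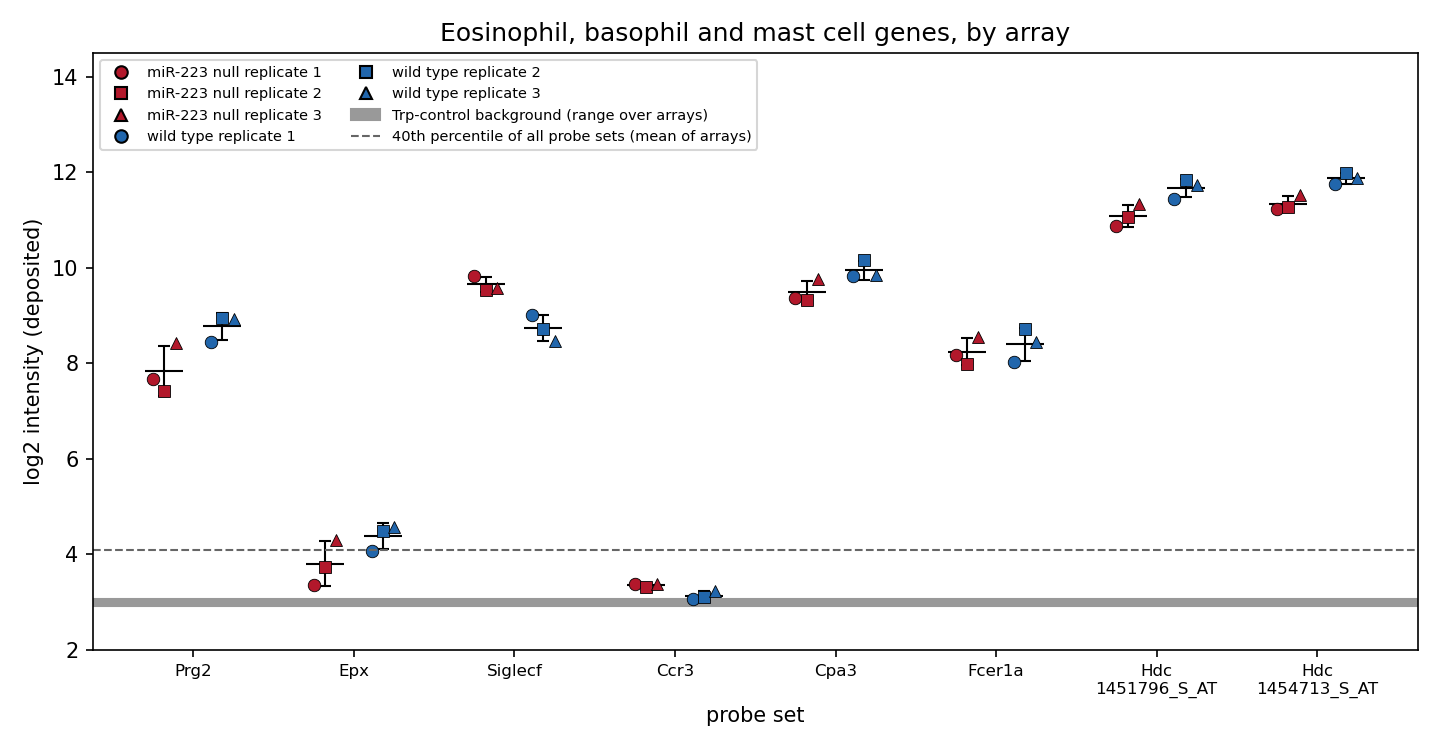
Deposited log2 intensity (vertical axis) of the 8 probe sets, with miR-223 null arrays in red at the left of each column and wild-type arrays in blue at the right; symbols stand for replicate numbers, and bars are mean and SD of 3 arrays. Ccr3 lies next to the grey band of the tryptophan controls (2.91 to 3.07) and Epx on either side of the dashed 40th percentile, while the other 6 probe sets lie above 7.4.

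The other 5 genes read well above background in both genotypes. Prg2, Siglecf, Cpa3, Fcer1a and both Hdc probe sets were at least 4.44 log2 units above the tryptophan controls on every array. Their means over 6 arrays stood between the 81.6th percentile of all probe sets for Prg2 and the 97.6th for Hdc 1454713_S_AT. Some of these genes are not exclusive to the cells they mark: Cpa3 and Hdc are also known from early myeloid progenitors, Hdc from immature myeloid cells, and Siglecf from alveolar macrophages. In RNA from a bead-selected sample of many cells, a smaller share of cells of 1 type and less RNA per cell cannot be told apart.

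In the comparison of null with wild-type cells, Siglecf was higher and Prg2, Hdc, Cpa3 and Epx were lower, with Fcer1a showing little difference. Without pairing, none of the 7 kept probe sets passed an adjusted p of 0.05 in limma, although 6 of 7 had an unadjusted p under 0.05. Of all 27022 kept probe sets, 0.189% passed and 10.7% had an unadjusted p under 0.05. With arrays blocked by replicate number, 5 of 7 passed: Siglecf rose, and Prg2, Epx and both Hdc probe sets fell. This blocked fit takes the numbers as pairs, which the labels do not state. The background share for this fit was 10.0% of all kept probe sets, with 4.96% higher and 5.05% lower in null arrays. When kept probe sets were split by signal into 3 bands of like size, 6 of the 7 lay in the brightest, where 19.1% of 9008 passed, and Epx in the dimmest, where 2.02% of 9007 did. Of the 5 that passed, 2 are for the same gene. With the block and no filter on dim signal 6 of 8 passed, Cpa3 among them (limma adjusted p = 0.0498), against 5.45% of all 45037 probe sets that are not controls.

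Groups that do not overlap were also common among the members. In 6 of all 8 probe sets no null value fell within the range of the wild-type values, with 2 probe sets higher and 4 lower in null arrays. The share was 16.8% of kept probe sets (8.12% with null higher and 8.68% with null lower) and 14.3% of all probe sets. In 7 of 8 the sign was the same in 3 of 3 pairs, against 46.6% of kept probe sets. The 8 include Ccr3, next to background and not kept, and 2 probe sets for Hdc. Of the 7 kept members, 5 did not overlap. In two-sided exact permutation tests of single probe sets, where 3 arrays a group allow no p below 0.1, the p was 0.1 for the 6 without overlap, 0.2 for Epx and 0.6 for Fcer1a. The median difference over the 8 was -0.49 log2 units, against -0.01 over all kept probe sets. The members were picked with earlier results of these arrays known, and these shares are given as a description.

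Prg2, the major basic protein of eosinophil granules (chromosome 2, 84980461 to 84983632), had the largest fall of the 8. Probe set 1422873_AT read 7.66, 7.42 and 8.43 in null arrays, against 8.45, 8.96 and 8.93 in wild-type arrays. Null 3 was only 0.02 below wild-type 1, so the groups were barely apart, and null 1 and null 2 were far lower. The means were 7.84 ± 0.53 in null and 8.78 ± 0.28 in wild-type arrays (SD, n = 3 each), so that the null signal was 52.1% of the wild-type signal. The difference was -0.94 log2 units (SE 0.27, limma adjusted p = 0.274) without and the same (SE 0.17, limma adjusted p = 0.0181) with the block. The SE in limma borrows from the spread of other probe sets and is not that of the 3 pairs alone. With the block but without the intensity trend of the variance, the SE was 0.20 and Prg2 did not pass (limma adjusted p = 0.0913). Only 0.152% of kept probe sets, 41 in number, were as much lower or more. Within pairs it differed by -0.79, -1.54 and -0.49 log2 units, and without the replicate 2 pair by -0.64 (blocked limma adjusted p = 0.0277).

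Epx, the other granule protein, had lower values in the null array of each of the 3 pairs. Its means were 3.80 ± 0.47 in null and 4.38 ± 0.27 in wild-type arrays (SD, n = 3 each), and the values of the genotypes overlapped because null 3 lay above wild-type 1. The difference of -0.58 log2 units had a limma adjusted p of 0.458 without the block and 0.0327 with it. Leaving out the replicate 1 pair or the replicate 2 pair ended the blocked call (limma adjusted p = 0.0870 and 0.152). Without null 1 the unpaired difference was -0.36 (SE 0.21, limma adjusted p = 0.508). The call stands on 1 of the dimmest kept probe sets.

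Siglecf, a sialic acid-binding inhibitory receptor on eosinophils (chromosome 7, 43351341 to 43359475), went the other way. Probe set 1424975_AT read 9.83, 9.54 and 9.58 in null arrays, against 9.01, 8.73 and 8.46 in wild-type arrays. All null values were above all wild-type values, by at least 0.53 log2 units, the widest gap of the 8 probe sets. The means were 9.65 ± 0.16 in null and 8.73 ± 0.27 in wild-type arrays (SD, n = 3 each), a 1.89-fold higher signal in null cells. The log2 difference was 0.92 (SE 0.16, limma adjusted p = 0.0915) without and 0.92 (SE 0.07, limma adjusted p = 0.0015) with the block. Within the pairs it was 0.83, 0.81 and 1.12. With the block it passed also when any 1 pair was left out (limma adjusted p between 0.000501 and 0.00418). In such fits the few arrays hardly measure the spread of the pairs, and the SE leans on other probe sets. Siglecf also passed with the block when the intensity trend of the variance was dropped (limma adjusted p = 0.0379), and was the only member to pass in that last fit.

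The opposite directions of Siglecf and Prg2 also show in their ratio within each array, which does not depend on an array's overall brightness. The log2 difference Siglecf minus Prg2 was 2.17, 2.12 and 1.15 in null arrays, against 0.55, -0.23 and -0.47 in wild-type arrays. Because each gene was already separated between the genotypes, in opposite directions, the separation of this ratio follows from theirs and was not tested. It gives the size of the contrast, which was 1.62, 2.35 and 1.61 log2 units within pairs, and 1.54, 1.56 and 1.40 with Epx in place of Prg2. Epx was close to background and its values overlapped between genotypes, which limits the second contrast.

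**Figure D2:**
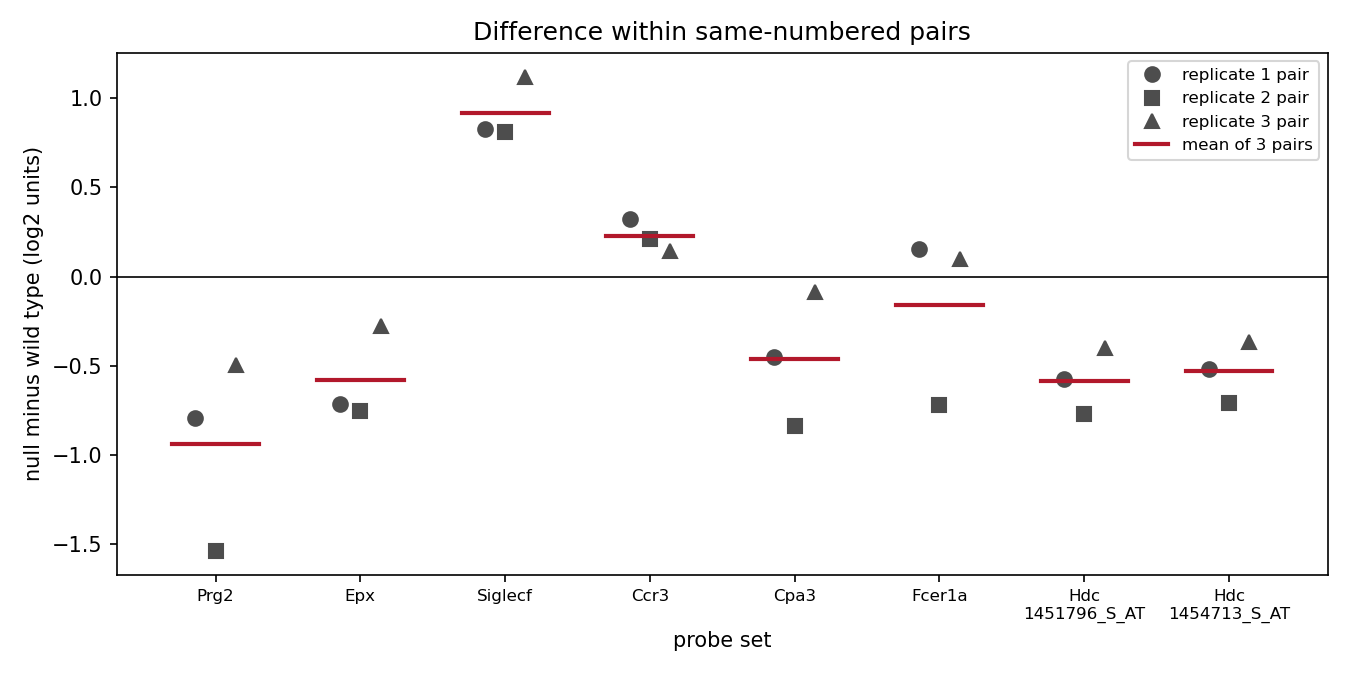
Null minus wild type in log2 units (vertical axis) within each same-numbered pair of arrays, with the mean as a red line, for the 8 probe sets. Siglecf and Ccr3 are above 0 in all pairs, Prg2, Epx, Cpa3 and Hdc below 0 in all pairs, and Fcer1a is above 0 in 2 pairs and at -0.72 in the replicate 2 pair.

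Hdc, histidine decarboxylase, makes histamine (chromosome 2, 126593659 to 126624025), and both of its probe sets were lower in null cells. Probe set 1451796_S_AT read 10.88, 11.06 and 11.33 in null arrays, against 11.45, 11.83 and 11.73 in wild-type arrays. Probe set 1454713_S_AT read 11.23, 11.28 and 11.52 in null arrays, against 11.75, 11.99 and 11.88 in wild-type arrays. In both, every null value lay below every wild-type value, and null 3 was the nearest to the wild-type arrays. The null signal was 66.8% and 69.2% of the wild-type signal by the 2 probe sets. The differences were -0.58 (SE 0.14, limma adjusted p = 0.205) and -0.53 (SE 0.10, limma adjusted p = 0.119) without the block, and with it both passed (SE 0.07 and 0.06, limma adjusted p = 0.00384 and 0.00437). Both also passed with the block without any 1 pair, with limma adjusted p of at most 0.0145 and 0.0175, in fits that hardly measure the spread of the pairs. The 2 probe sets measure 1 gene and are not independent. Their log2 ratio was 0.25 ± 0.09 in null and 0.20 ± 0.08 in wild-type arrays (SD, n = 3 each, exact two-sided permutation p = 0.5). The S in their identifiers is the maker's mark for probes that can match more than 1 transcript.

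Cpa3, the carboxypeptidase of mast cell granules (chromosome 3, 20215616 to 20242209), was lower in null cells by less, and did not pass in either fit of the kept probe sets. Probe set 1448730_AT read 9.37, 9.33 and 9.76 in null arrays, against 9.83, 10.17 and 9.84 in wild-type arrays. The groups did not overlap, but null 3 was just 0.07 below wild-type 1. The difference was -0.46 log2 units (SE 0.15, limma adjusted p = 0.339), and with the block the limma adjusted p was 0.0562. It was -0.84 within the replicate 2 pair but -0.45 and -0.09 within those of replicates 1 and 3. Without the replicate 2 pair it was -0.27 (blocked limma adjusted p = 0.227), and without the replicate 3 pair it was -0.65 and passed with the block (limma adjusted p = 0.00557).

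Fcer1a, the IgE-binding chain of the high-affinity receptor on mast cells and basophils (chromosome 1, 173221269 to 173227232), showed no difference beyond the spread of the arrays. Probe set 1421775_AT read 8.18, 7.995 and 8.55 in null arrays, against 8.03, 8.72 and 8.46 in wild-type arrays, and the groups overlapped throughout. The difference was -0.16 log2 units, with a 95% interval of -0.65 to 0.33 without the block (limma adjusted p = 0.866) and of -0.53 to 0.21 with it (limma adjusted p = 0.599). A change of the size seen for Hdc lies inside the first interval and just outside the second. The sign rests on the replicate 2 pair: without it the blocked difference was 0.13, and without wild-type 2 alone it was 0.0018.

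Within arrays, Cpa3 stood lower relative to Fcer1a in null cells, and Hdc did so on average, but not in every pair by both of its probe sets. These ratios were chosen after the members' values were seen and are given without a test. The log2 ratio of Cpa3 to Fcer1a was 1.24 ± 0.08 in null and 1.55 ± 0.22 in wild-type arrays (SD, n = 3 each), and lower in the null array of all 3 pairs. That of Hdc 1451796_S_AT to Fcer1a was 2.85 ± 0.19 in null and 3.27 ± 0.16 in wild-type arrays (SD, n = 3 each), with a difference of only -0.05 in the replicate 2 pair. That of Hdc 1454713_S_AT to Fcer1a was 3.10 ± 0.16 in null and 3.47 ± 0.23 in wild-type arrays (SD, n = 3 each). Here the groups overlapped, as null 2 (3.28) lay above wild-type 2 (3.27).

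**Figure D3:**
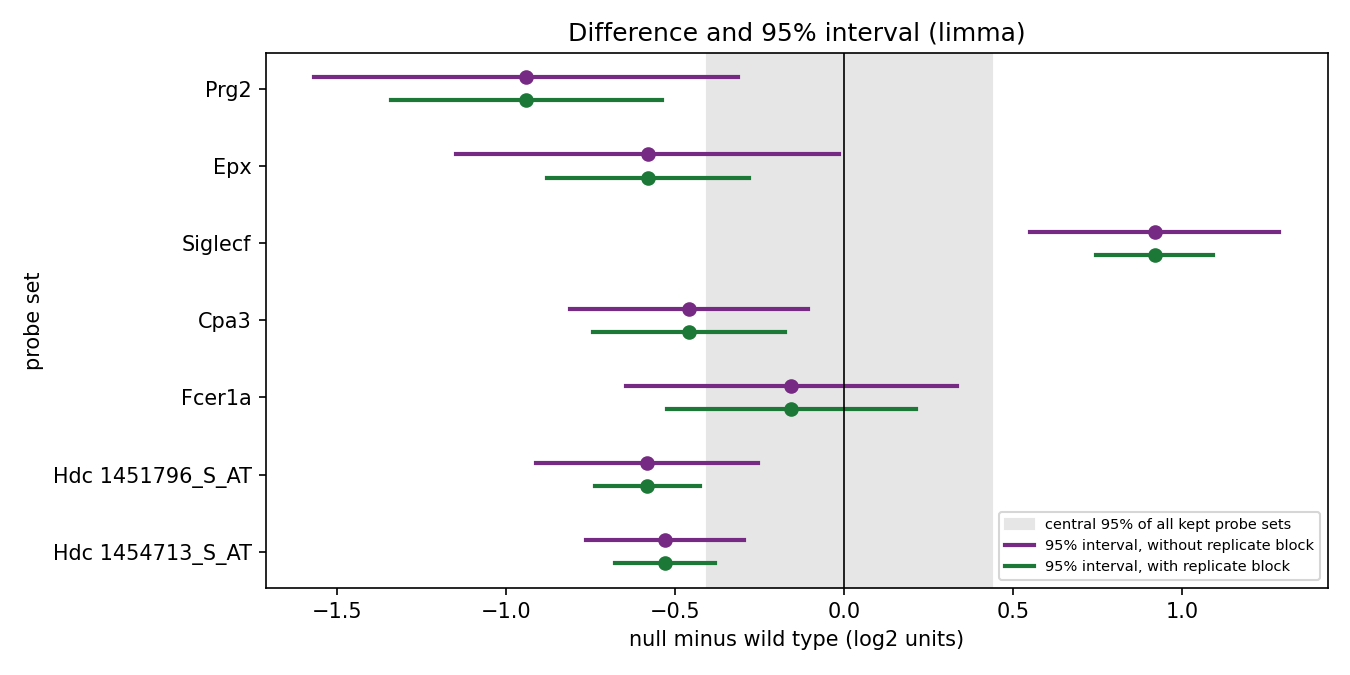
Null minus wild type in log2 units (horizontal axis) with its 95% interval from limma for the 7 kept probe sets, without the replicate block in purple and with it in green. The grey area holds the central 95% of all kept probe sets, from -0.41 to 0.44; the estimates of Prg2, Epx, Cpa3 and Hdc lie to its left, that of Siglecf to its right and that of Fcer1a inside it.

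The members also shared a pattern among arrays of 1 genotype. Null 3 was the highest of the null arrays in 6 of 8 probe sets, against 34.4% of kept probe sets, and wild-type 1 was the lowest of the wild-type arrays in 7 of 8, against 39.6%. The pair of replicate 2 had the largest difference in 6 of 8, against 29.8%. Siglecf followed none of these 3 patterns. The 8 count Hdc by both of its probe sets and include Ccr3, which was not kept.

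The replicate 1 arrays stood apart from the others in control readings, in both genotypes. The 3′ minus 5′ difference of beta-actin, a reading of RNA integrity, reached 0.28 for null 1 and 0.26 for wild-type 1, while the remaining 4 arrays read 0.15 to 0.21. That of Gapdh went the other way, at -0.11 for null 1 and -0.09 for wild-type 1, while the remaining 4 arrays read -0.06 to 0.07, so these 2 readings do not give 1 order of RNA integrity. By genotype the actin reading ranged from 0.18 to 0.28 in null and from 0.15 to 0.26 in wild-type arrays. Without both replicate 1 arrays and without pairing, 3 of 7 members passed, with Siglecf higher and both Hdc probe sets, which measure 1 gene, lower. The share of all kept probe sets that passed in this fit was 3.97%. The part of RNA integrity in the members' differences was not tested. Markers of neutrophils and other cells, and the level of miR-223, were not analysed here, because the table names its rows by probe set only.

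Promoter sequence is shown for Cpa3 and Fcer1a, the mast cell and basophil genes with the motif GATAA. It is also shown for Siglecf, the gene that rose, which has no GATAA in the stretch searched. RefSeq (build GRCm38.p6) had entries for 6 of the 7 genes, all but Prg2. The motif searched was GATAA, the core recognised by GATA factors, on both strands (TTATC on the other), in the 250 bases before the start site. GATAA was found in 3 of 6, namely Cpa3, Fcer1a and Ccr3, and in 23.0% of 27025 promoters of the same length. Siglecf, Epx and Hdc had none, and of these Epx and Hdc were lower in null arrays. For Hdc and Ccr3 the stretch searched lay wholly inside the annotated gene, so it does not show the sequence upstream of the gene. The 3 with the motif comprise Cpa3, lower without passing, Fcer1a, with little difference, and Ccr3, next to background. Each sequence is on the gene's strand, 5′ to 3′, and is limited to bases outside the annotated gene, with the motif in capitals. They lie at chr3:20242210-20242431 (minus strand), chr1:173227233-173227479 (minus strand) and chr7:43351091-43351340 (plus strand).
Cpa3: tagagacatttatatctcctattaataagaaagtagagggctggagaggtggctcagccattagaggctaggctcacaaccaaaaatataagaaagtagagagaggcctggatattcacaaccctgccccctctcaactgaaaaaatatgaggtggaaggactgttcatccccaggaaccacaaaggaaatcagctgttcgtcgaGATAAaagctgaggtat
Fcer1a: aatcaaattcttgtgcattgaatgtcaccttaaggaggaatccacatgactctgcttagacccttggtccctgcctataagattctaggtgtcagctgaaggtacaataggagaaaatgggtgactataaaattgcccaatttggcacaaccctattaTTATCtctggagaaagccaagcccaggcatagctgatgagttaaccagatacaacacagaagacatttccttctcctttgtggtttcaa
Siglecf: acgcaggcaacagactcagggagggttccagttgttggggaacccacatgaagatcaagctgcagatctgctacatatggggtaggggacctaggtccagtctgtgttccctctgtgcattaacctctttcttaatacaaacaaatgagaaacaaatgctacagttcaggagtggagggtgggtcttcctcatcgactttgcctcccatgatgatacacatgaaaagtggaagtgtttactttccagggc
In Cpa3 the motif begins 45 bases before the start site and reads on the gene's strand, and in Fcer1a it begins 92 bases before it and reads on the opposite strand. A match is a match of letters only, and binding was not measured.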

How the data were processed

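The authors deposited 1 table of log2 intensities, with 45101 probe sets as rows and 6 arrays as columns. The submitters' processing notes name GCOS, while background correction, normalization and probe summary are not given in the sources used here. The log2 scale was read from the values, whose array medians agree closely, so they were used as deposited and differences are relative to other probe sets of the array. Probe sets were given gene names only for the 8 members, by the identifiers that define them. The gene lists and nearest-pattern genes planned alongside were not run, since no table pairing probe sets with genes was used here, and the background level planned from genes of foreign tissues was replaced by the tryptophan controls. The named genes are all members.

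The 64 control probe sets were set aside, and the 27022 others with a mean at or above the 40th percentile (4.08) were tested, null minus wild type, in limma 3.58.1 (R 4.3.3, lmFit and eBayes with intensity trend), two-sided, with Benjamini-Hochberg adjustment over all of them and a threshold of 0.05. The fit without the block was tested on simulated data with independent noise, and the blocked fit was not. Single values were compared by exact two-sided permutation tests. Deviations from group means correlated at 0.70, 0.30 and 0.48 between same-numbered null and wild-type arrays, all above 0.1. Arrays of unlike number also exceeded that, null 3 with wild-type 2 at 0.41 and null 2 with wild-type 3 at 0.21. These correlations therefore cannot settle whether the numbers pair arrays, and the labels do not say what a number stands for. The blocked fit takes the numbers as pairs, and its calls depend on that. The number of arrays limits the precision. In blocked fits without 1 pair the SE leans largely on the spread of other probe sets. Members and lists were chosen with earlier results of these data known. Alternatives were other filters, quantile normalization, median centring, no trend, the block and leaving out arrays or pairs.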

Additional observations from a re-analysis of the deposited data

How the results depend on the processing

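Without the block, no member passed (limma adjusted p under 0.05), whether of the 7 kept as deposited, after quantile normalization or median centring, without the intensity trend and without any 1 array, of all 8 with no filter or of 6 with a filter at the 60th percentile. At an unadjusted limma p under 0.05 there were 4 to 6 of the 7, 7 of 8 and 5 of 6. Among all probe sets tested in the same fits, 1753 to 3638 of 27022, 3790 of 45037 and 2263 of 18015 had such a p. The replicate block gave 5 members, 4 to 6 without any 1 pair, and, in fits chosen after seeing the data, 6 of 8 with no filter and 1 without the intensity trend. Leaving out both replicate 1 arrays, also chosen later, gave 3 members unpaired. The counts of all probe sets at an adjusted p under 0.05 were 51 unpaired (0 to 58 without any 1 array) and 1072 unpaired without replicate 1. With the block they were 2703 (606, 2045 and 2319 without the pair of replicate 2, 1 and 3), 2455 with no filter and 191 without the trend. The cause was not tested. Of 126 refits of single members, 2 turned the direction, both for Fcer1a: 0.13 log2 units with the block and without the replicate 2 pair, and 0.0018 without wild-type 2 (unpaired, range -0.34 to 0.0018 without any 1 array). Refits that change only the filter, the trend or the block on all 6 arrays leave the estimate as it is. Only those that drop arrays or renormalize could turn it, so the 126 overstate how far direction was tried. The number above background was 7 or 8 in the planned settings (8 without wild-type 1, where Ccr3 joined) and 6 with the 40th percentile of the array, chosen later. Most probe sets of each array also exceed the tryptophan level. Background levels from genes of foreign tissues were not run. Low signal over background limits Ccr3 and Epx.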
